A study of Mus musculus with 10 samples.

Results

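Enzymes and transporters that handle drugs, steroids and aldehydes were followed in mouse liver with raised or lowered activity of the sterol regulatory element-binding proteins (SREBPs). They were chosen by gene symbol alone: cytochromes P450 (Cyp), glucuronosyltransferases (Ugt), sulfotransferases (Sult), glutathione transferases (Gst), carboxylesterases (Ces), aldehyde, alcohol and short-chain dehydrogenases (Aldh, Adh, Dhrs), aldo-keto reductases (Akr), flavin monooxygenases (Fmo), epoxide hydrolases (Ephx) and ATP-binding cassette transporters (Abc). The array carried 73 such genes, 10 of which were set aside (Cyp51, Cyp39a1, Abcg5, Ugt2b1, Sult2a8, Ces1e, Ces1f, Gstt3, Gstm4 and Gstp3). The remaining 63 of the 7542 genes with a symbol of their own on the array are described here, each by the brightest of its probe sets. They comprise 12 cytochromes P450, 22 other enzymes of oxidation, reduction and hydrolysis, 8 conjugating enzymes and 21 ABC transporters, with no epoxide hydrolase. These roles were assigned by symbol, and the cytochromes P450 include Cyp4b1-ps2, a pseudogene by its symbol. The array is the B chip of a set of 3, and the family members on the other chips were not analysed here.

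Liver RNA of male mice was hybridised to Affymetrix MG_U74Bv2 arrays. TgSREBP-1a and TgSREBP-2 mice express the nuclear, active form of the human protein from a transgene, and wild type littermates served as their control (the transgene controls). These mice were 12 to 16 weeks old and had spent 2 weeks on a high protein/low carbohydrate diet, which drives transgene expression, so the diet was shared by the control. Scap-/- mice (Scap-/-;MX1-Cre) lose the escort protein SCAP in liver after Cre is induced, and wild type mice served as their control (the Scap controls). Both groups of that experiment were 10 to 12 weeks old, ate Teklad chow, received 4 injections of polyinosinic-polycytidylic acid and gave their livers 14 days after the last injection. The strain and the promoter of the transgenes are not given in the sources used here. MX1-Cre is induced through interferon and is not restricted to hepatocytes. Each of the 5 groups was 1 pool of 20 µg RNA from 5 livers, read on 2 arrays, which makes 10 arrays. Every p-value below therefore compares pools against hybridisation error and carries no information on the spread between mice. In whole liver, fewer cells of a type and less RNA per cell cannot be told apart.

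SREBPs are made as membrane precursors that SCAP carries to the Golgi when sterols are low. There the active part is cut free, enters the nucleus and turns on genes of cholesterol and fatty acid synthesis by binding sterol response elements. The enzymes described here work elsewhere in liver metabolism. Cytochromes P450, flavin monooxygenases, dehydrogenases and reductases add or change functional groups on drugs, steroids, bile acids and fatty acids. Transferases then attach sugar, sulfate or glutathione, and ABC transporters move lipids, bile salts and conjugates across membranes.

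Because SREBPs bind near gene starts, the members' promoters were read for the sterol response element core TCACNCCAC on both strands. RefSeq (GRCm38.p6) held 60 promoter windows for 49 of the 63 members, each from 250 bases before to 50 bases after a start. The core was present in 3 of the 60 windows (5%) and in 408 of 32851 windows of all genes (1.24%). Those 3 windows belonged to Gstm7, Aldh9a1 and Abca3 and are shown for that reason, 5′ to 3′ on the gene's strand, with the core in capitals. The Gstm7 window is chr3:107931565-107931864 on the minus strand, with the core on the opposite strand from position -9. The window at the other listed start of Gstm7, chr3:107931768-107932067, did not hold it. That start lies upstream on the minus strand, so the core is downstream of it, beyond the 50 bases that a window covers. In the letters below, an ATG before the core opens a reading frame that runs through the core without a stop. From the upstream start, the core would lie in transcribed sequence and not in the promoter. Which start is used in liver was not tested. The Aldh9a1 window is chr1:167349741-167350040 on the plus strand, with the core at -41, and the Abca3 window is chr17:24351773-24352072 on the plus strand, with the core at -225.
Gstm7: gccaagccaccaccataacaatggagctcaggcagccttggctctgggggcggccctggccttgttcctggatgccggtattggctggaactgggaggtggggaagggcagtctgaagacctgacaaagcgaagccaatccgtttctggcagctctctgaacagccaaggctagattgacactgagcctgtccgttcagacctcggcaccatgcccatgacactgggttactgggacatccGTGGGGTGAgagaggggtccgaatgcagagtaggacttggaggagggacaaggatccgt
Aldh9a1: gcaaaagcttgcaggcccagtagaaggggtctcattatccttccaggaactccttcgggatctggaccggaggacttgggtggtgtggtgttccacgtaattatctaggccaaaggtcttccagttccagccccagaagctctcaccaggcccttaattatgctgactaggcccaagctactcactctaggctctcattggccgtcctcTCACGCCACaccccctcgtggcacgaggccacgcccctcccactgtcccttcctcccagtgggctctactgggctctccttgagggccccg
Abca3: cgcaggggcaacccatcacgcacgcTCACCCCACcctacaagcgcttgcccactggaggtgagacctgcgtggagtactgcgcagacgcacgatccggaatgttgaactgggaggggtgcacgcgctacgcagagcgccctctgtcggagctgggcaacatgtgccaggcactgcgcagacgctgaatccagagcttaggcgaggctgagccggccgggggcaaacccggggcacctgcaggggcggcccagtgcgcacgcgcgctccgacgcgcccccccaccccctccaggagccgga
The E-box CACGTG, which SREBPs can also bind, was in 3 of the 60 windows (5%, against 7.15% of all windows). The CCAAT box, a site of NF-Y, was read in either orientation (CCAAT or ATTGG). It was in 33 windows (55%, against 37.4%), which belonged to 28 members. These matches are descriptions of letters and not of binding.

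The duplicate arrays of a pool correlated between 0.987 and 0.994 over all probe sets. The second TgSREBP-2 array stood apart: it was closer to a wild type array of its study (0.992) than to its duplicate, and its brightest probe set read 12.2 on the log2 scale against 12.9 to 13.4 on the other arrays. In the Scap study every array was closer to an array of the other group than to its duplicate. The brighter probe set of the targeted gene, Scap, fell by 1.22 ± 0.18 in Scap-/- liver (limma standard error; adjusted p = 0.0175), and its dimmer probe set differed by 0.12 ± 0.13. No value here measures the human transgenes. All levels below are log2 expression values, all differences are log2 fold changes with limma standard errors over 2 arrays a group, and p-values were adjusted by Benjamini-Hochberg across the 12411 probe sets. A change had to reach 1.5-fold at an adjusted p under 0.05 to pass. Of the 63 members, 18 had a mean level under the median of all probe sets.

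In TgSREBP-1a liver 3 members rose against the wild type pool (Sult4a1, Gstm7 and Aldh9a1) and 5 fell (Cyp4f14, Cyp2c23, Ugt2a3, Ugt3a2 and Akr1c19), while 55 did not pass. That is 4.76% of members higher and 7.94% lower, against 1.36% and 0.814% of all probe sets. At an unadjusted p under 0.05 stood 16 members (25.4%), against 10.3% of all probe sets. Of the probe sets with a mean level at or above the median, 2.08% rose, 1.43% fell and 13.6% had an unadjusted p under 0.05. In TgSREBP-2 liver 0 members rose and 2 fell in the limma fit (Aldh1b1 and Ugt3a1), where 0.338% of all probe sets rose and 0.161% fell. There 13 members (20.6%) had an unadjusted p under 0.05, against 7.92% of all probe sets. In Scap-/- liver 0 members rose and 0 fell in the limma fit, where 0.0161% and 0.258% of all probe sets rose and fell. There 14 members (22.2%) had an unadjusted p under 0.05, against 7.74% of all probe sets. The same shares of the brighter probe sets were 0.564%, 0.274% and 8.91% in TgSREBP-2, and 0.0322%, 0.483% and 9.15% in Scap-/-. The median difference of the members was -0.02 in TgSREBP-1a, -0.02 in TgSREBP-2 and -0.07 in Scap-/-, beside -0.02, -0.02 and 0.02 over all probe sets. Members went both ways. The median size of their differences, regardless of sign, was 0.15, 0.15 and 0.14, beside 0.09, 0.10 and 0.10 over all probe sets. For the brighter probe sets it was 0.10, 0.10 and 0.11. The median standard error was also larger for members, at 0.137, than over all probe sets (0.115) or the brighter ones (0.117). Between the wild type pools 15 members (23.8%) had an unadjusted p under 0.05, against 9.70% of all probe sets and 12.5% of the brighter ones. The median size there was 0.14, beside 0.10 over all probe sets. Both transgenic lines were compared with the same 2 wild type arrays, so their differences are given side by side and not as separate evidence.

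**Figure D1:**
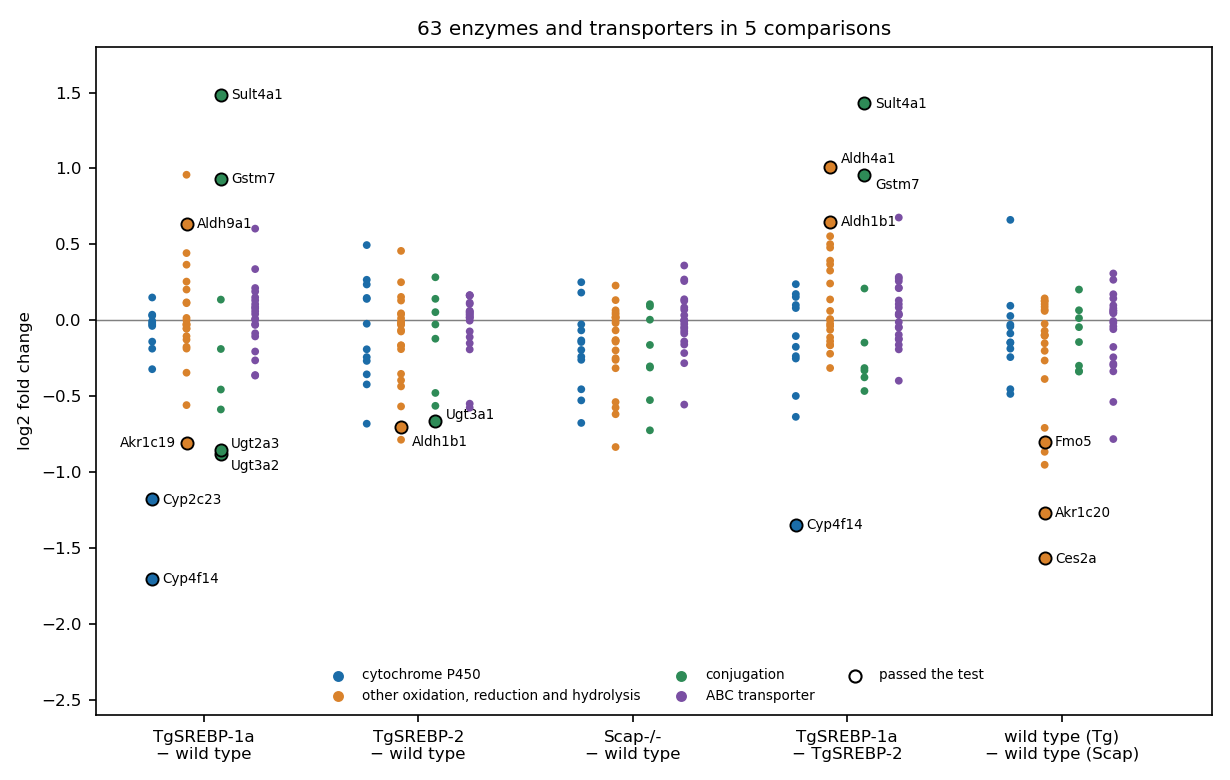
The log2 fold change of each of the 63 members in the 5 comparisons, with 1 point per gene, coloured by role. Ringed and named points passed the test: 8 in TgSREBP-1a, 2 in TgSREBP-2, 0 in Scap-/-, 5 between the transgenic lines and 3 between the wild type pools.

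Among the cytochromes P450, 2 of 12 fell in TgSREBP-1a and 0 rose. Cyp4f14 (probe set 115003_at), a hydroxylase of fatty acids and leukotrienes, read 9.97 and 9.60 in the transgene controls, 8.09 and 8.06 with TgSREBP-1a and 9.40 and 9.45 with TgSREBP-2. On the arrays of the Scap study it read 10.18 and 9.87 in controls and 10.02 and 9.55 in Scap-/-. The TgSREBP-1a arrays lay more than 1 log2 unit below all others, whereas the other 4 pools lay near each other. It fell by 1.71 ± 0.17 in TgSREBP-1a (3.26-fold, adjusted p = 0.000273) and differed by -0.36 ± 0.17 in TgSREBP-2 (adjusted p = 0.653). Cyp2c23 (107092_at), which makes epoxides of arachidonic acid, read 10.08 and 9.79 in wild type, 8.87 and 8.65 with TgSREBP-1a and 9.24 and 9.27 with TgSREBP-2. Both transgenic pools lay below wild type without overlap. It fell by 1.18 ± 0.17 in TgSREBP-1a (2.27-fold, adjusted p = 0.00366), and its difference of -0.68 ± 0.17 in TgSREBP-2 did not pass (adjusted p = 0.233).

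The other 10 cytochromes P450 differed by -0.32 to 0.15 in TgSREBP-1a. The lowest of these was Cyp27a1, the mitochondrial sterol hydroxylase of bile acid synthesis (-0.32 ± 0.18). In TgSREBP-2, Cyp2c50 stood at 0.50 ± 0.17 (adjusted p = 0.503), the highest P450 value there, and at -0.14 ± 0.17 in TgSREBP-1a. Cyp4f15 and Cyp4f16, relatives of Cyp4f14 on the same chromosome with 4 and 7 protein-coding genes between, stood at -0.02 ± 0.19 and 0.04 ± 0.12 in TgSREBP-1a. Of the 3 Cyp4f genes, Cyp4f14 alone passed the test in TgSREBP-1a.

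Of the 8 conjugating enzymes, 2 rose and 2 fell in TgSREBP-1a. Sult4a1 (112514_at), a sulfotransferase best known from brain and without an established substrate, read 7.54 and 7.47 in wild type, 9.21 and 8.77 with TgSREBP-1a and 7.78 and 7.34 with TgSREBP-2. In the Scap study it read 7.55 and 7.43 in wild type and 7.61 and 7.58 in Scap-/-. The TgSREBP-1a arrays stood above the 8 others, which overlapped. It rose by 1.48 ± 0.16 (2.79-fold, adjusted p = 0.000608), while the gene's dimmer probe set differed by 0.20 (unadjusted p = 0.151), so the probe sets disagree. Gstm7 (112921_at), a mu-class glutathione transferase, held the sterol response element core in the window of 1 listed start but downstream of the other. It read 7.62 and 7.42 in wild type, 8.66 and 8.25 with TgSREBP-1a and 7.48 and 7.51 with TgSREBP-2. In the Scap study it read 8.0 and 7.64 in wild type and 7.33 and 6.86 in Scap-/-. Its highest levels were those of TgSREBP-1a and its lowest those of Scap-/-, and neither overlapped its control. It rose by 0.93 ± 0.18 in TgSREBP-1a (1.91-fold, adjusted p = 0.0225), stood at -0.03 ± 0.18 in TgSREBP-2 and at -0.72 ± 0.18 in Scap-/- (adjusted p = 0.324).

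The 4 glucuronosyltransferase genes all stood below wild type in TgSREBP-1a, and 2 of them passed. Ugt2a3 (111042_at) read 9.52 and 9.11 in wild type, 8.56 and 8.35 with TgSREBP-1a and 8.80 and 8.87 with TgSREBP-2. It fell by 0.85 ± 0.17 in TgSREBP-1a (adjusted p = 0.0245). Its relative Ugt2b36, with 2 protein-coding genes between, stood at -0.59 ± 0.20 (adjusted p = 0.246), and the other probe set of Ugt2b36 at -0.70. Both of these enzymes attach glucuronic acid. Ugt3a1 and Ugt3a2 belong to a family that uses other sugars and lie next to each other. Ugt3a2 (112474_f_at) read 10.61 and 10.28 in wild type, 9.73 and 9.40 with TgSREBP-1a and 10.01 and 9.75 with TgSREBP-2, and fell by 0.88 ± 0.20 in TgSREBP-1a (1.84-fold, adjusted p = 0.0441). The other probe set of Ugt3a2 stood at -0.61 there. The suffix of 112474_f_at marks probes shared by similar sequences, so its signal may include a close relative.

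Ugt3a1 (111054_at) read 7.33 and 7.22 in wild type, 6.86 and 6.78 with TgSREBP-1a and 6.63 and 6.59 with TgSREBP-2. It was lowest in TgSREBP-2, and no transgenic array reached the wild type arrays. In TgSREBP-2 it fell by 0.67 ± 0.10 (1.59-fold, adjusted p = 0.0141). In TgSREBP-1a it stood at -0.46 ± 0.10 with an adjusted p of 0.0355, a change under 1.5-fold. The median of the 4 Ugt genes was -0.72 in TgSREBP-1a, -0.52 in TgSREBP-2 and -0.31 in Scap-/-, where 0 of them passed and 4 of 4 stood below their control. The remaining conjugating enzymes, Sult1c2 and Gstcd, stood at -0.19 ± 0.11 and 0.14 ± 0.16 in TgSREBP-1a.

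**Figure D2:**
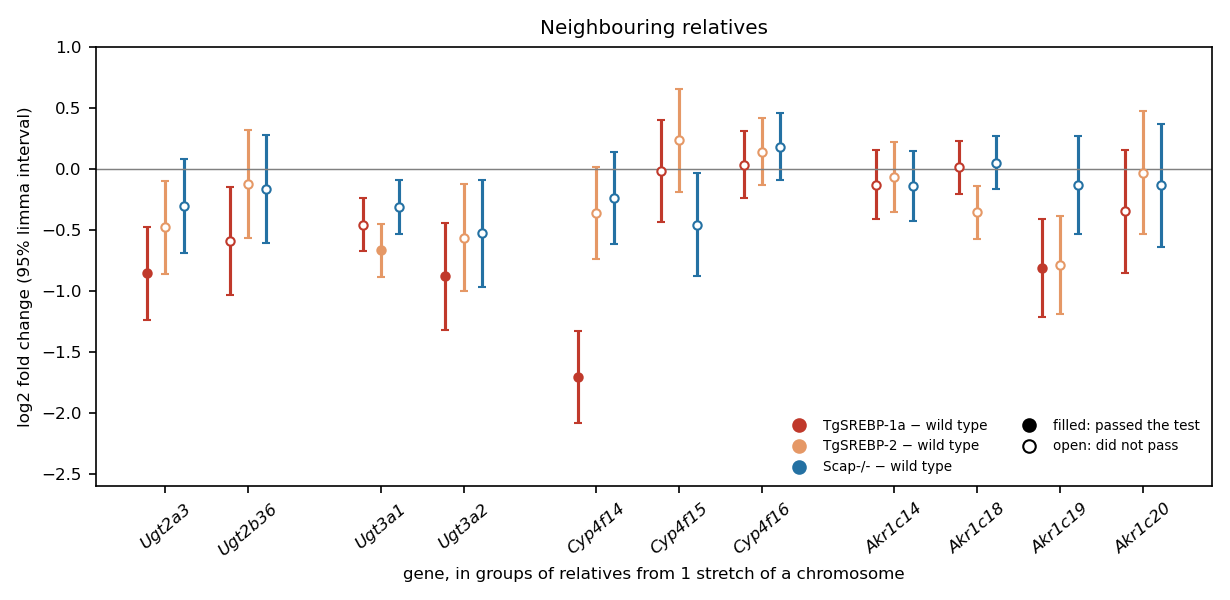
The log2 fold change of relatives that lie near each other on a chromosome, with 95% limma intervals, in the 3 comparisons with a control pool. Filled points passed the test: Cyp4f14 at -1.71 stands apart from Cyp4f15 and Cyp4f16 in TgSREBP-1a, while the 4 Ugt genes lie below 0 in all 3 comparisons.

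Of the 22 other enzymes of oxidation, reduction and hydrolysis, 1 rose and 1 fell in TgSREBP-1a. Aldh9a1 (164932_f_at), which makes a precursor of carnitine and also holds the sterol response element core, read 3.83 and 3.77 in wild type, 4.24 and 4.63 with TgSREBP-1a and 3.89 and 4.03 with TgSREBP-2. It rose by 0.63 ± 0.14 in TgSREBP-1a (1.55-fold, adjusted p = 0.036). These levels lie under the median of all probe sets, and the probe set's suffix marks shared probes. Akr1c19 (116336_at), an aldo-keto reductase, read 7.54 and 7.35 in wild type, 6.60 and 6.67 with TgSREBP-1a and 6.67 and 6.65 with TgSREBP-2. The 4 transgenic arrays lay together, below wild type. It fell by 0.81 ± 0.18 in TgSREBP-1a (1.75-fold, adjusted p = 0.0434), and its difference of -0.79 ± 0.18 in TgSREBP-2 did not pass (adjusted p = 0.158).

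The neighbours of Akr1c19 differed less. Akr1c18, which inactivates progesterone, stood at 0.02 ± 0.10 in TgSREBP-1a and -0.35 ± 0.10 in TgSREBP-2, with 1 protein-coding gene between. Akr1c14 and Akr1c20 stood at -0.13 ± 0.13 and -0.35 ± 0.23 in TgSREBP-1a. Akr1d1, the steroid reductase of bile acid synthesis, read 4.19 and 3.88 in wild type, 5.09 and 4.89 with TgSREBP-1a and 4.16 and 4.82 with TgSREBP-2. These levels lie under the median of all probe sets, and the duplicate arrays of the Scap controls read 5.40 and 4.58. The Akr1d1 difference of 0.96 ± 0.26 in TgSREBP-1a was large but did not pass (adjusted p = 0.113), and the second TgSREBP-2 array lay near the TgSREBP-1a arrays. Ces2a, a carboxylesterase, stood at -0.56 ± 0.21 (adjusted p = 0.326).

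The calls in TgSREBP-1a were also read with single arrays left out. This costs precision, so a lost call does not by itself show reliance on the array removed. Over all alternatives run, Akr1c19 stayed between -0.90 and -0.72 and Ugt3a2 between -1.05 and -0.71. Leaving out the first or second wild type array left 2 and 4 of the 8 passing, and leaving out the first or second TgSREBP-1a array left 4 and 3. Without the second TgSREBP-1a array the transporter Abcc4 passed in addition. Cyp4f14 and Sult4a1 passed in all of these fits, and Akr1c19 and Ugt3a2 in none. Ugt3a2 also lost its call under a trended, robust prior of the spread (adjusted p = 0.0576).

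In TgSREBP-2 liver the other gene that fell besides Ugt3a1 was Aldh1b1 (106594_at), a mitochondrial dehydrogenase of acetaldehyde. It read 7.48 and 7.42 in wild type, 7.38 and 7.41 with TgSREBP-1a and 6.74 and 6.76 with TgSREBP-2. In the Scap study it read 7.35 and 7.34 in wild type and 7.17 and 6.89 in Scap-/-. The TgSREBP-2 arrays were the lowest, and the Scap-/- arrays also lay below their control. It fell by 0.70 ± 0.10 in TgSREBP-2 (1.63-fold, adjusted p = 0.0141) and stood at -0.05 ± 0.10 in TgSREBP-1a and -0.32 ± 0.10 in Scap-/- (adjusted p = 0.541). The larger values that did not pass in TgSREBP-2 were those of Akr1c19 and Cyp2c23 (above), Abcb11 (-0.58 ± 0.15), Aldh4a1 (-0.57 ± 0.22), Ugt3a2 (-0.56 ± 0.20) and Abca3 (-0.55 ± 0.16). Without the second TgSREBP-2 array, which stood apart, Aldh1b1 still passed and Ugt3a1 did not (-0.65, adjusted p = 0.0506). Without the first TgSREBP-2 array or either wild type array, 0 members passed in the limma fit.

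Whether the transgenic lines differed was tested directly. Between them 4 members were higher in TgSREBP-1a (Sult4a1, Aldh4a1, Gstm7 and Aldh1b1) and 1 lower (Cyp4f14), while 1.18% and 0.677% of all probe sets were higher and lower. Among probe sets at or above the median level these shares were 1.74% and 1.16%. Sult4a1 was higher by 1.43 ± 0.16 (adjusted p = 0.00117), while its dimmer probe set differed by 0.31 ± 0.13 (adjusted p = 0.304). Gstm7 was higher by 0.96 ± 0.18 (adjusted p = 0.0233). Cyp4f14 differed by -1.35 ± 0.17 (2.55-fold lower, adjusted p = 0.00203). For these 3 genes the TgSREBP-2 pool lay near wild type. Aldh1b1 was higher by 0.65 ± 0.10 (adjusted p = 0.00847), with TgSREBP-1a near wild type and TgSREBP-2 below.

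Aldh4a1 (109808_at), a mitochondrial enzyme of proline breakdown, read 8.17 and 7.68 in wild type, 8.58 and 8.16 with TgSREBP-1a and 7.40 and 7.32 with TgSREBP-2. The wild type arrays lay between those of the lines and overlapped TgSREBP-1a. The lines differed by 1.01 ± 0.22 (2.01-fold, adjusted p = 0.0468), although neither passed against wild type (0.44 ± 0.22 and -0.57 ± 0.22). Of the 8 aldehyde dehydrogenases, 6 had a difference above 0 between the lines, with a median of 0.36. Of all 63 members 33 stood above 0 there, and of all 12411 probe sets 6443 did. Ugt2a3, Ugt3a2 and Akr1c19, which fell in TgSREBP-1a, did not pass between the lines (-0.38 ± 0.17, -0.31 ± 0.20 and -0.02 ± 0.18). Cyp2c23, which also fell in TgSREBP-1a, did not pass there either, with means of 8.76 in TgSREBP-1a and 9.26 in TgSREBP-2. The same held for Aldh9a1, which rose in TgSREBP-1a (means of 4.43 and 3.96). For Akr1c19 the 95% interval of the difference between the lines ran from -0.43 to 0.38. Without the second TgSREBP-2 array 3 of the 5 passed (Aldh1b1, Cyp4f14 and Sult4a1). Without the first TgSREBP-2 array or the first TgSREBP-1a array 2 passed (Cyp4f14 and Sult4a1). Aldh4a1 lost its call whichever of the 4 arrays was left out, and also under the trended, robust prior (adjusted p = 0.051).

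**Figure D3:**
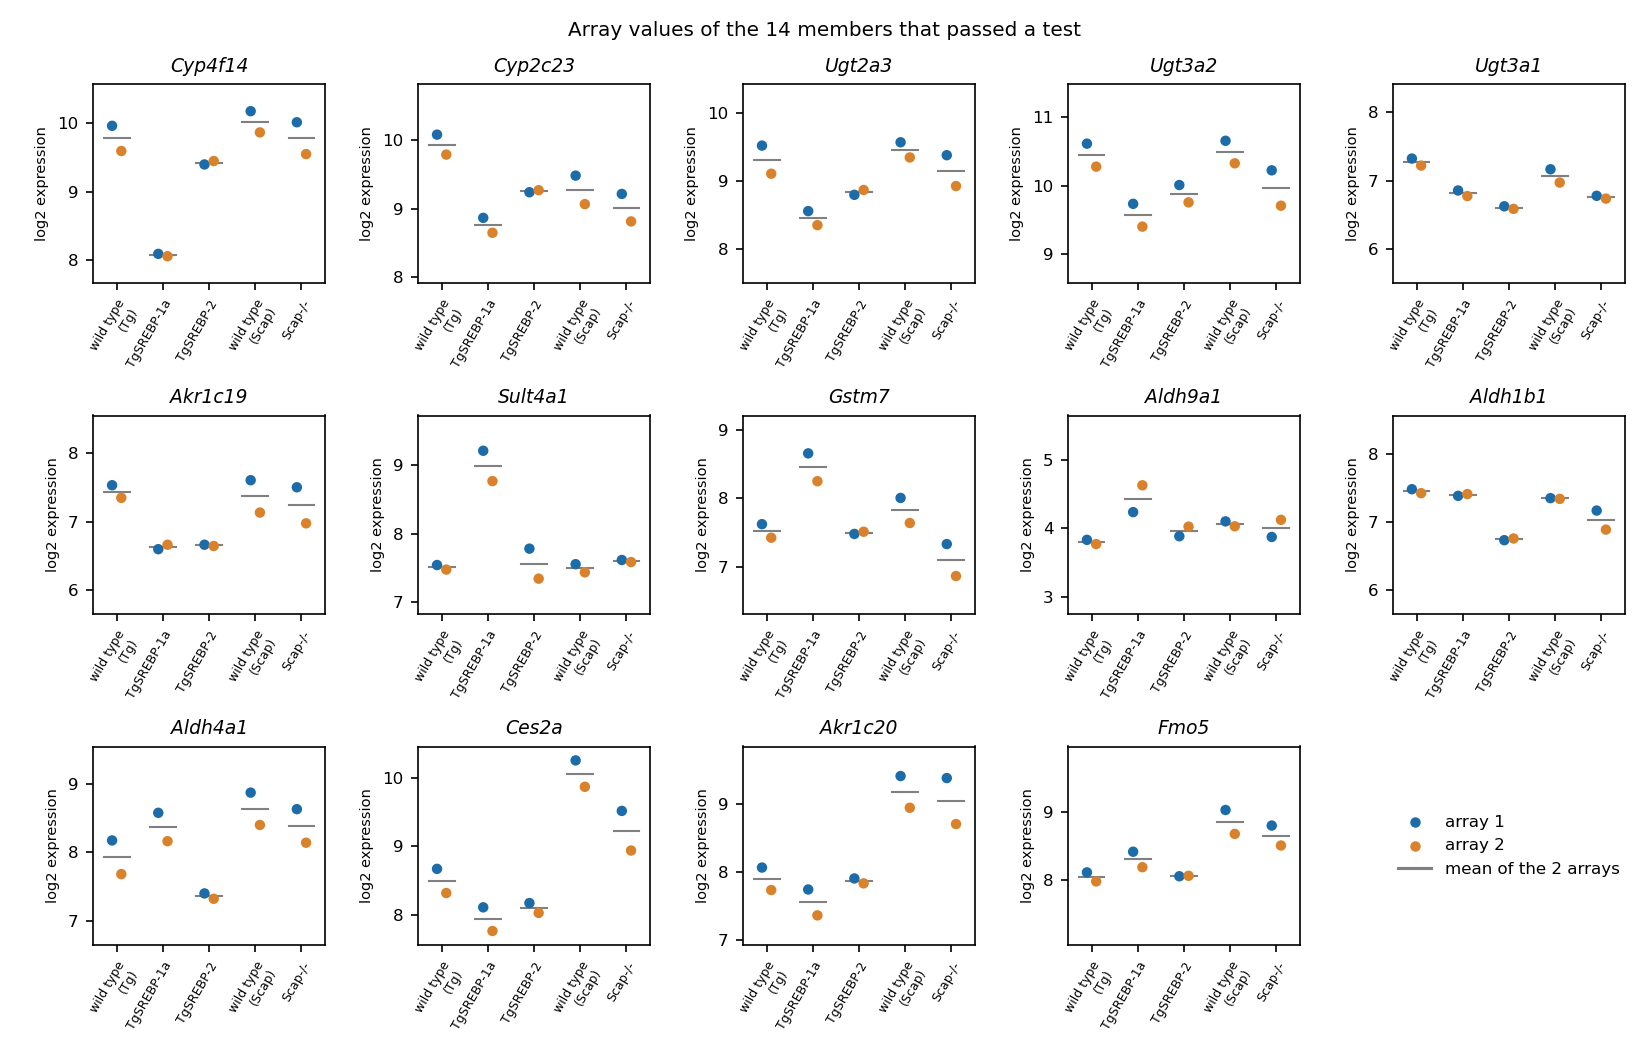
Log2 expression on each array for the 14 members that passed in at least 1 comparison, by pool, with a line at the mean of the 2 arrays. The panels share a span of 2.9 log2 units. The low TgSREBP-1a arrays of Cyp4f14, the high ones of Sult4a1, and the difference of Ces2a between the wild type pools stand out.

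In Scap-/- liver more members stood below their wild type control (41) than above it (22), whereas over all probe sets 5665 stood below and 6746 above. The split was much the same for the transgene controls against these Scap controls, with 40 members below and 23 above. Over all probe sets 5555 stood below and 6856 above there. The lowest value in Scap-/- was that of Ces2a, at -0.83 ± 0.21 (1.78-fold, adjusted p = 0.29). It read 10.25 and 9.87 in wild type and 9.51 and 8.94 in Scap-/-, without overlap. Gstm7 followed at -0.72 ± 0.18, Cyp27a1 at -0.68 ± 0.18 (adjusted p = 0.374) and Aldh1l1, a dehydrogenase of folate metabolism, at -0.62 ± 0.20 (adjusted p = 0.535). Cyp27a1 read 11.98 and 11.70 in wild type and 11.30 and 11.02 in Scap-/-, but the other probe set of Cyp27a1 stood at 0.16. The dim Akr1d1 stood at -0.58 ± 0.26, Aldh8a1 at -0.54 ± 0.22, Cyp2c69 at -0.53 ± 0.16 and Ugt3a2 at -0.53 ± 0.20. The highest value was 0.36 ± 0.11, for the transporter Abca8b.

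None of the 21 ABC transporters passed in any of the 5 comparisons in the limma fit, in which 0.274% to 2.18% of all probe sets passed, so a count of 0 among 21 is near the background. At an unadjusted p under 0.05 stood 4 of them in TgSREBP-1a, 2 in TgSREBP-2, 4 in Scap-/-, 3 between the lines and 6 between the wild type pools. Those are 9.52% to 28.6% of the transporters, beside 7.74% to 14.7% of all probe sets. Abcb11, the bile salt export pump of the hepatocyte, read 9.81 and 9.51 in wild type, 9.45 and 9.15 with TgSREBP-1a and 9.10 and 9.07 with TgSREBP-2. In the Scap study it read 10.31 and 10.09 in wild type and 9.80 and 9.49 in Scap-/-. It stood below its control in all 3 comparisons, at -0.36 ± 0.15, -0.58 ± 0.15 and -0.56 ± 0.15 (adjusted p = 0.408, 0.27 and 0.374). The other probe set of Abcb11 stood at -0.45, -0.68 and -0.84.

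Abcc4, which exports bile acids and conjugates into blood, read 3.96 and 3.87 in wild type, 4.75 and 4.29 with TgSREBP-1a and 4.01 and 3.68 with TgSREBP-2. It was highest in TgSREBP-1a, by 0.60 ± 0.16 over wild type (adjusted p = 0.104) and 0.68 ± 0.16 over TgSREBP-2 (adjusted p = 0.0664), at levels under the median of all probe sets. Without the second TgSREBP-1a array these became 0.84 and 0.91 and passed (adjusted p = 0.0456 and 0.0385). Abcc2, the exporter of conjugates into bile, stood at 0.34 ± 0.14 in TgSREBP-1a, and Abcb6, a porphyrin-linked transporter, at -0.36 ± 0.15. Abca3, a phospholipid transporter whose promoter holds the sterol response element core, stood at -0.26 ± 0.16, -0.55 ± 0.16 and -0.14 ± 0.16 in TgSREBP-1a, TgSREBP-2 and Scap-/-. Abcg1, which exports cholesterol, stood at 0.00 ± 0.10, 0.16 ± 0.10 and 0.00 ± 0.10. The dim half-transporters Abcd2 of peroxisomes and Abcg2 stood between 0.00 and 0.19 in these 3 comparisons, and Abcf1 and Abcf2, which lack membrane domains, between -0.21 and 0.11.

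The wild type pools themselves differed, and they came from mice of different age, diet and treatment. In the pool of the transgenic study 0 members were higher and 3 lower than in that of the Scap study (Ces2a, Akr1c20 and Fmo5), while 0.153% and 0.355% of all probe sets were higher and lower. Among probe sets at or above the median level these shares were 0.274% and 0.580%. Ces2a read 8.67 and 8.31 against 10.25 and 9.87, a difference of -1.57 ± 0.21 (2.97-fold, adjusted p = 0.00934). This was a wider gap than in any comparison with a transgenic or Scap-/- pool for this gene. Akr1c20 read 8.06 and 7.74 against 9.40 and 8.94 (-1.27 ± 0.23, adjusted p = 0.0416). Fmo5, a flavin monooxygenase, read 8.11 and 7.98 against 9.02 and 8.67 (-0.80 ± 0.14, adjusted p = 0.0401). For these 3 genes no array of one wild type pool reached the other. Akr1c20 and Fmo5 did not pass in any comparison with a transgenic or Scap-/- pool. Age, diet, injections and study cannot be told apart here. Leaving out the first wild type array of the Scap study or the second of the transgenic study left 0 members passing in the limma fit, and leaving out the first of the transgenic study left 1 (Ces2a).

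**Figure D4:**
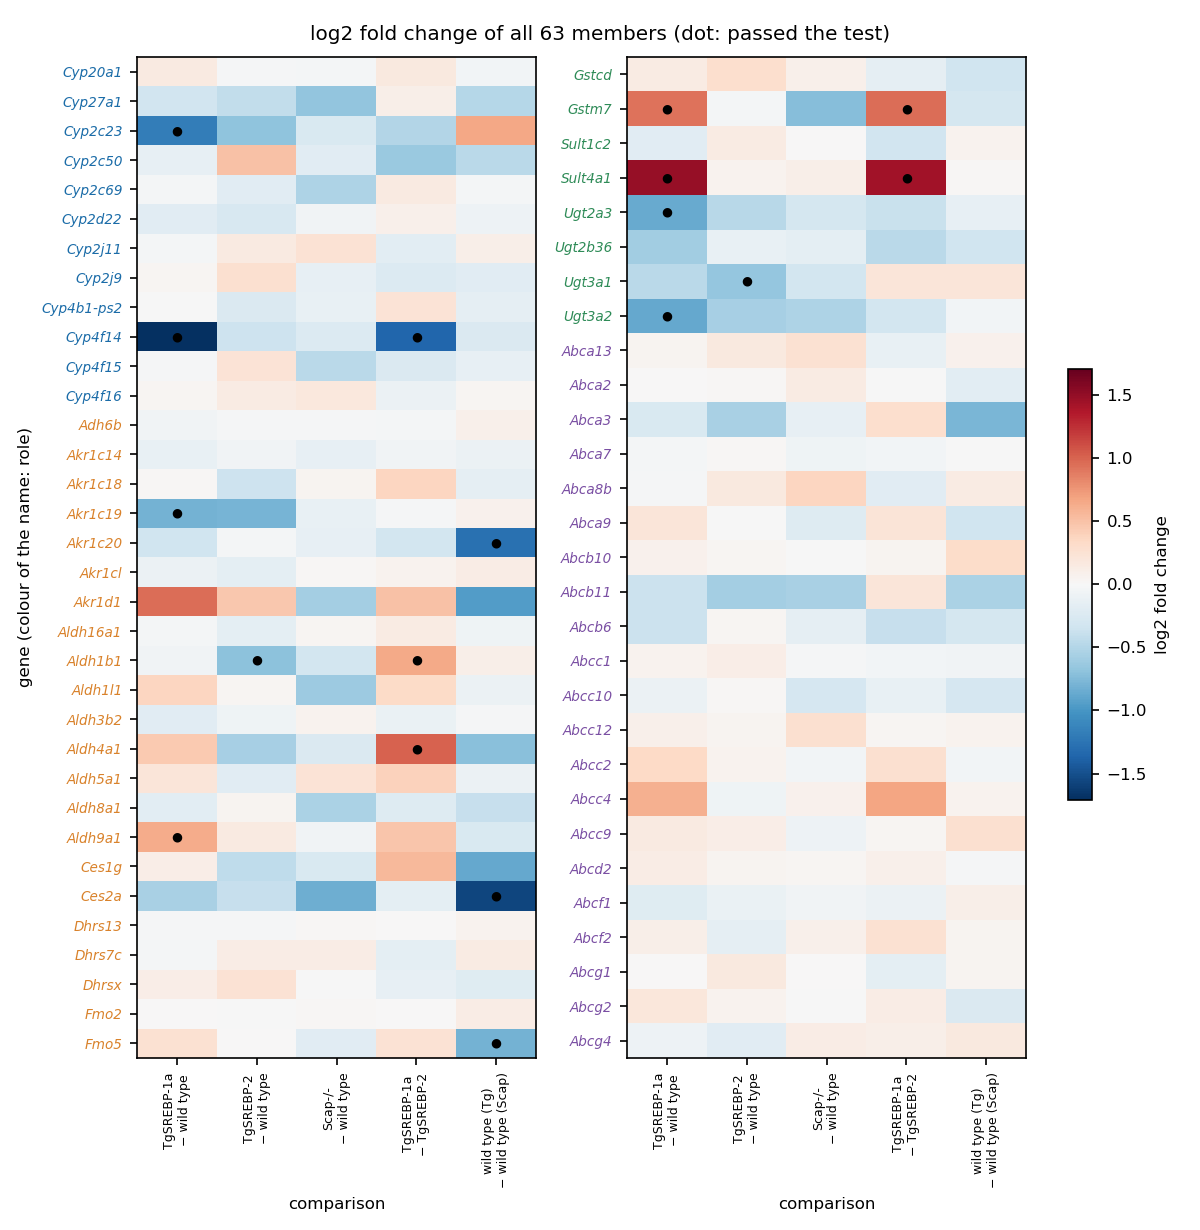
The log2 fold change of all 63 members in the 5 comparisons, in colour from lower (blue) to higher (red), with a dot where the test was passed. Names are coloured by role as in the plot of points by comparison. Most cells are pale, and the 21 ABC transporters carry no dot.

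Members that did not pass anywhere still differed in how they lay over the pools. Ces1g, an esterase of drugs and lipids, read 9.27 and 9.03 in the transgene controls, 9.45 and 9.09 with TgSREBP-1a and 8.77 and 8.66 with TgSREBP-2. In the Scap study it read 10.24 and 9.79 in controls and 10.04 and 9.48 in Scap-/-. The arrays of the Scap study were all above those of the transgenic study, and the wild type pools differed by -0.87 ± 0.20 (adjusted p = 0.137). Aldh5a1, which degrades the transmitter GABA, stood at 0.20 ± 0.16 in TgSREBP-1a, -0.19 ± 0.16 in TgSREBP-2 and 0.23 ± 0.16 in Scap-/-. Cyp2d22 stood at -0.19 ± 0.15, -0.27 ± 0.15 and -0.07 ± 0.15 in the same order. The neighbours Cyp2j9 and Cyp2j11 stood at 0.27 ± 0.11 and 0.15 ± 0.13 in TgSREBP-2, and at 0.03 ± 0.11 and -0.03 ± 0.13 in TgSREBP-1a. Abca8b and Abca9, with 1 protein-coding gene between, stood on opposite sides of their control in Scap-/- (0.36 ± 0.11 and -0.22 ± 0.11). Abcc9, a regulatory subunit of potassium channels, was at 0.15 ± 0.12 in TgSREBP-1a, and Abcb10 of the mitochondrial inner membrane at 0.08 ± 0.21. Abcc10 stood lower in Scap-/- by a value of -0.28 ± 0.09 (adjusted p = 0.541).

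Over the 5 pools, the range of a member's mean levels had a median of 0.39 and ran from 0.06 for Dhrs13, a short-chain dehydrogenase, to 2.13 for Ces2a. It was over 1 for 10 members. Fmo2 (0.13), Adh6b (0.11), Abca7 (0.08) and Abcc1 (0.11) were also nearly level over the pools. Adh6b and Abcc1 lay under the median of all probe sets.

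Partners and regulators of these enzymes were sparse on this chip. Of 22 listed genes of this kind 8 were measured, and 1 of them fell in TgSREBP-1a. This was Ppara, the receptor gene of fatty acid oxidation, at -1.15 ± 0.19 (adjusted p = 0.00866). The receptor partner Rxra and the liver regulator Hnf4a were among the 7 that did not pass. Of 30 listed genes of cofactor supply and of other conjugating or oxidizing enzymes 10 were measured, and 2 fell in TgSREBP-1a: the aldehyde oxidase Aox3 (-2.39 ± 0.25) and the glycine conjugating enzyme Glyat (-1.04 ± 0.20). Over all probe sets 0.814% fell in TgSREBP-1a. Aox3 was also lower in TgSREBP-1a than in TgSREBP-2 (-1.39 ± 0.25, adjusted p = 0.0154). It was lower in the transgene controls than in the Scap controls as well (-2.04 ± 0.25, adjusted p = 0.00713). Neither list had a gene that passed in TgSREBP-2 or Scap-/- in the limma fit. The medians of the lists lay at -0.17 in TgSREBP-2 for both, and at -0.17 and -0.18 in Scap-/-. Among the 10 genes set aside by the rule, 7 passed in TgSREBP-1a, 2 in TgSREBP-2 and 3 in Scap-/-. Of all probe sets 2.18%, 0.500% and 0.274% passed there. The set-aside genes that passed included Cyp51 of cholesterol synthesis (2.12 ± 0.15, 2.72 ± 0.15 and -1.57 ± 0.15). The rule thus took out several family genes with large changes.

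Some markers of other cells differed between the pools, and the macrophage and erythroid lists rested on 1 measured gene each. No measured marker of cholangiocytes, lymphocytes or intestine (1 of 5, Muc2) passed in any comparison. The stellate and fibroblast list and the adipocyte list had no measured gene. Of 10 pancreatic acinar markers 3 were measured, and their summed level on the log2 scale was 10.9 to 11.4 for transgene controls, 7.82 to 7.84 for TgSREBP-1a and 11.7 to 12.0 for TgSREBP-2. It was 9.83 to 10.1 for Scap controls and 8.02 to 8.07 for Scap-/-. Of 10 hepatocyte markers 3 were measured, and 2 fell in TgSREBP-1a (Fetub and C8a). Their summed level was 13.5 to 13.6 for transgene controls, 12.9 to 13.1 for TgSREBP-1a, 12.6 to 13.6 for TgSREBP-2, 13.5 to 13.6 for Scap controls and 13.3 to 13.5 for Scap-/-. The macrophage marker Cd163, 1 of 8 listed, rose by 0.91 ± 0.15 in TgSREBP-1a, where its level was 5.71 to 5.80 against 4.82 to 4.88 in wild type. It was 4.28 to 4.81 in TgSREBP-2, 4.72 to 4.79 in the Scap controls and 4.52 to 4.65 in Scap-/-. Of 10 endothelial markers 4 were measured, and Lyve1 rose by 0.64 ± 0.10 in TgSREBP-1a. The summed endothelial level was 9.53 to 9.64 in TgSREBP-1a, 9.31 to 9.43 in its wild type, 9.22 to 9.25 in TgSREBP-2, 9.42 to 9.50 in the Scap controls and 9.30 to 9.44 in Scap-/-. The erythroid list had 1 of 6 genes measured, Tfrc, the transferrin receptor gene, which rose 2.83-fold in TgSREBP-2 (adjusted p = 0.0163). The measured cholangiocyte (2 of 7) and lymphocyte (2 of 8) markers had median differences of -0.09 and -0.06 in TgSREBP-1a, 0.04 and 0.16 in TgSREBP-2 and 0.09 and 0.12 in Scap-/-. The part of these markers in the members' differences was not tested.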

How the data were processed

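Liver RNA pools of 5 groups were each hybridised to 2 arrays. The authors deposited log2 expression values per probe set, made by RMA per the submitters' processing notes (no version given), whereas the series' design text names MICROARRAY SUITE 5.0. RMA equalises the arrays' distributions, and the deposited arrays had medians between 5.625 and 5.662, so a shift of most genes would not be seen. No genome build was given in the sources used here, so no coordinates are given for probe sets.

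Of 12477 probe sets, 66 controls were left out and 12411 fitted. GEO's platform annotation gave 1 symbol to 10581 probe sets, several to 178 and none to 1652, and RefSeq listed the symbols of all 63 members. For the 13 members with more than 1 probe set, the brightest over all arrays was used. All 10 arrays entered a linear model of the 5 group means (lmFit and eBayes of limma 3.58.1, R 4.3.3), with two-sided Benjamini-Hochberg adjustment over all 12411. A change passed at an adjusted p under 0.05 and at least 1.5-fold. Having 2 arrays a group limits the precision, and the members' median standard error was 0.137. The script was tested on simulated data.

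The members and lists were chosen with earlier results of these data known, and the promoter motifs after the members' values were seen. The genes named were all 14 members that passed, in each comparison the 6 largest rises and 6 largest falls without overlap between the groups' arrays, and the 3 brightest of each family, described where they add to a group. Genes named beyond this rule, such as the neighbours of members that passed, were chosen after their values were seen. Alternatives covered the arrays in the fit, normalization, dim probe sets, the probe set rule, the prior, the fold threshold, the membership and a replicate block.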

Additional observations from a re-analysis of the deposited data

Results flagged for a closer look

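Members whose difference from wild type was not the same in the transgenic lines were picked out by the direct test between TgSREBP-1a and TgSREBP-2, in which the shared wild type arrays drop out. In that limma test Sult4a1 stood 1.43 higher in TgSREBP-1a on the log2 scale, Aldh4a1 1.01, Gstm7 0.96 and Aldh1b1 0.65, and Cyp4f14 differed by -1.35. The dimmer probe set of Sult4a1 differed by 0.31 (adjusted p = 0.304). For Sult4a1, Gstm7 and Cyp4f14 it was TgSREBP-1a that lay away from wild type, and for Aldh1b1 it was TgSREBP-2. Aldh4a1 lay on opposite sides of wild type in the lines, without passing against wild type in either.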

How the results depend on the processing

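None of the 18 differences that passed changed direction under the alternatives run. Those of Cyp4f14 and Sult4a1 in TgSREBP-1a against wild type and against TgSREBP-2 passed under all 11 alternatives run for each. A trended, robust prior ended the calls of Ugt3a2 in TgSREBP-1a and of Aldh4a1 between the lines. With the 10 set-aside genes included, the counts were 15 in TgSREBP-1a, 4 in TgSREBP-2, 3 in Scap-/-, 10 between the transgenic lines and 6 between the wild type pools. A 2-fold threshold left 3, 0 and 3 in TgSREBP-1a, TgSREBP-2 and between the lines. Leaving out each array in turn gave 2 to 4 (Abcc4 included) in TgSREBP-1a, 0 to 1 in TgSREBP-2, 0 in Scap-/-, 2 to 4 between the lines and 0 to 4 between the wild type pools. In these fits the lone array of a group is assumed to vary like the other groups. Between the wild type pools, only 4 arrays in the fit left 0 members passing, and a second quantile normalization gave 5. The hybridisation numbers of the labels (1 and 2) are not stated to pair arrays. With the number as a replicate block, the counts were 10 in TgSREBP-1a, 4 in TgSREBP-2, 4 in Scap-/- (Aldh1l1, Ces2a, Cyp27a1 and Gstm7, all lower), 6 between the lines and 7 between the wild type pools. Deviations of same-numbered arrays correlated at 0.60 in the Scap study, 0.41 for TgSREBP-1a with wild type and 0.06 for TgSREBP-2 with wild type. The cause of these changes was not tested, beyond the genes added or arrays removed. Signal over background could not be assessed from the deposited values, and 18 members lay under the median level.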

Other observations

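Among the 45 members at or above the median level, the array numbered 1 read higher than the array numbered 2 for 35 in the Scap-/- pool, 35 in the Scap controls, 34 in the transgene controls, 31 in TgSREBP-1a and 26 in TgSREBP-2. The median gap was 0.28, 0.19, 0.10, 0.15 and 0.03 on the log2 scale. Over all probe sets the first array was the higher in 53.5%, 48.4%, 45.4%, 47.0% and 52.5%. Among the 18 dimmer members it was the higher for 10, 9, 10, 7 and 10. Array numbers were spread evenly over the groups compared.

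Of the 13 members with a second probe set, 7 had differences of the same sign on both in TgSREBP-1a, TgSREBP-2 and Scap-/- (Abcb11, Akr1c14, Aldh1l1, Dhrs13, Fmo2, Ugt2b36 and Ugt3a2). The signs were the same in 2 of these 3 comparisons for Abca9, Abcd2 and Dhrsx, in 1 for Sult4a1 and in 0 for Abcc9 and Cyp27a1. The second probe set of Sult4a1 stood at 0.20, -0.11 and -0.03, beside 1.48, 0.05 and 0.11 on the brighter one. The second probe set of Cyp27a1 differed by 0.31 in TgSREBP-1a, 0.11 in TgSREBP-2 and 0.16 in Scap-/-, each of the opposite sign to the brighter one (-0.32, -0.42 and -0.68).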
